A study of Mus musculus with 7 samples.

Results

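The genes described here are 8 parts of the NF-kB pathway: the transcription factor subunit genes Nfkb1 and Rel, the inhibitor and co-regulator genes Nfkbia, Nfkbiz and Bcl3, the feedback genes Tnfaip3 and Zfp36, and the cytokine gene Tnf. They were chosen by symbol, through the Ensembl identifiers of GENCODE mouse release M21, as 8 of the 49315 genes in the count table, and all 8 were among the 17920 genes that passed the filter on low counts. RNA was measured by poly(A)-selected sequencing of bone marrow from chow-fed mice after surgical hindlimb ischemia, in which blood flow to a leg is cut. The 4 KO libraries carry the genotype label miR-181a2b2-/-, the loss of a microRNA cluster, and the 3 flox libraries carry miR-181a2b2flox/flox and are titled WT. Every library had the same diet and surgery. The labels used here name no Cre driver, age, sex or pooling, and do not tie the libraries to separate animals, so the spread behind the p-values may be technical.

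NF-kB factors are dimers held in the cytoplasm by inhibitors of the IkB family. Receptors for tumour necrosis factor (TNF), interleukin-1 and microbial products activate a kinase complex that marks the inhibitors for destruction, and the freed dimers enter the nucleus. Their targets include genes that end the response, among them the inhibitor IkB-alpha (Nfkbia), the ubiquitin-editing enzyme A20 (Tnfaip3) and tristetraprolin (Zfp36), which binds AU-rich elements in messenger RNA such as that of Tnf and speeds its decay. In marrow these genes are known from granulocytes, monocytes and lymphocytes alike.

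Total counts per library ran from 43110251 to 51688514. Marrow markers were present: 12 of 12 neutrophil markers were counted in every library, with a summed level of 33247 to 42147 normalised read counts (CPM, on TMM-scaled library sizes) in KO and 41756 to 59263 CPM in flox, and erythroid markers summed to 46108 to 60940 CPM in KO and 29385 to 49704 CPM in flox. On the first principal component the KO libraries lay between -23.2 and -16.6, flox 2 and flox 3 at 14.2 and 5.48, and flox 1 stood apart at 58.7. The summed level of 15 B lineage markers was 993 to 1268 CPM in KO, 612 and 938 CPM in flox 2 and flox 3, and 111 CPM in flox 1. All 15 B lineage, 10 of 11 dendritic cell, 9 of 9 erythroid, 9 of 10 NK cell and 8 of 12 T cell markers were higher in KO. In the other direction, 12 of 12 neutrophil, 11 of 12 monocyte and macrophage and 10 of 10 megakaryocyte and platelet markers were lower in KO. Dendritic cell markers summed to 961 to 1100 CPM in KO and 573 to 908 CPM in flox, without overlap. Flox 1 was the lowest of these, and the median log2 fold change of the list, KO minus flox, was only 0.12. NK cell markers summed to 98.1 to 122 CPM in KO and 103 to 140 CPM in flox, with overlap. T cell markers summed to 120 to 144 CPM in KO and 115 to 122 CPM in flox, also with overlap. Megakaryocyte and platelet markers summed to 534 to 761 CPM in KO and 690 to 1299 CPM in flox, with overlap, and flox 1 was the highest. Their median log2 fold change, KO minus flox, was -0.65. Of the 10, 9 were lower at an unadjusted edgeR p under 0.05, where 8.17% of all tested genes were. Without flox 1 the median was -0.37, and 4 of the 10 were lower at that p. None of the markers in these 8 lists passed the edgeR test over all genes. DESeq2 called 3 dendritic cell and 1 NK cell marker higher in KO and 2 megakaryocyte and platelet and 1 neutrophil marker lower. Over all genes that it gave an adjusted p, DESeq2 called 2.15%. The part of these differences in the results below was not tested. In bulk marrow, fewer cells of a type and less RNA per cell cannot be told apart.

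Zfp36 was the only one of the 8 genes whose libraries did not overlap between genotypes, and 0 of 8 passed the test over all genes. The other 7 lay between -0.09 and 0.27 on the log2 scale, with 95% intervals that hold 0. Across all 17920 tested genes an edgeR quasi-likelihood test with Benjamini-Hochberg adjustment called 0.145%, at an adjusted p of 0.05. At an unadjusted p of 0.05 it had 14.1% of all genes and 1 of the 8, Zfp36. All 4 KO libraries lay above all 3 flox libraries in 6.22% of tested genes and in 1 of the 8. The median log2 fold change, KO minus flox, was 0.17 over the 8 genes and -0.008 over all tested genes. Of the 8 genes, 5 were higher in KO, where 48.1% of all tested genes were.

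Zfp36 (ENSMUSG00000044786, chromosome 7, 28376784 to 28380253, minus strand, GRCm38) had 332, 367, 295 and 230 CPM in KO, against 224, 190 and 199 CPM in flox. KO 4 was the lowest KO library and lay just above flox 1, the highest flox library. The mean was 306 ± 58.6 CPM in KO (SD, n = 4) and 204 ± 17.6 CPM in flox (SD, n = 3), a ratio of 1.5 with a 95% interval of 1.19 to 1.88. On the log2 scale KO minus flox was 0.58 (SE 0.15, edgeR unadjusted p = 0.00328, adjusted p = 0.197), so the gene did not pass over all genes. DESeq2, which called 2.15% of the 16863 genes that it gave an adjusted p, called Zfp36 at an adjusted p of 0.0111, with 0.60. The value was 0.65 without flox 1 (edgeR adjusted p = 0.284), and it ran from 0.49 to 0.70 over the leave-one-out fits. Gm44710, an antisense gene that overlaps Zfp36, had 5 to 27 counts per library, against 9261 to 17200 for Zfp36. The strand setting (not given in the sources used here) decides whether reads of the overlap were counted for Zfp36, for Gm44710 or for neither.

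Beside Zfp36, 23 early response genes were read, a list of factors induced within minutes to hours of a stimulus that does not hold Zfp36. Their summed level was 2460, 2409, 2185 and 1763 CPM in KO and 1654, 1379 and 1562 CPM in flox, so the groups did not overlap, and KO 4 was again the lowest KO library. Of the 23, 19 were higher in KO, 13 of them with an unadjusted edgeR p under 0.05, 0 passed, and the median was 0.52. Over all tested genes 48.1% were higher in KO, and 5.89% were higher with an unadjusted edgeR p under 0.05. The list was chosen with earlier results of these data known, so its counts are a description only. DESeq2 called 8 of the 23, all higher in KO, where it called 2.15% of all genes with an adjusted p. Leaving out flox 1, edgeR called 1 of the 23, Dusp2. In this list Dusp2, a phosphatase that turns off MAP kinases, gave 1.24 (edgeR adjusted p = 0.151), Egr1 1.52 (0.153), Jund 0.52 (0.155) and Junb 0.50 (0.171). DESeq2 called all 4, with adjusted p of 1.67e-05 for Dusp2, 1.39e-06 for Egr1, 0.00785 for Jund and 0.0132 for Junb. Without flox 1 Dusp2 gave 0.97 (edgeR adjusted p = 0.0356). Their part in the Zfp36 difference was not tested.

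**Figure D1:**
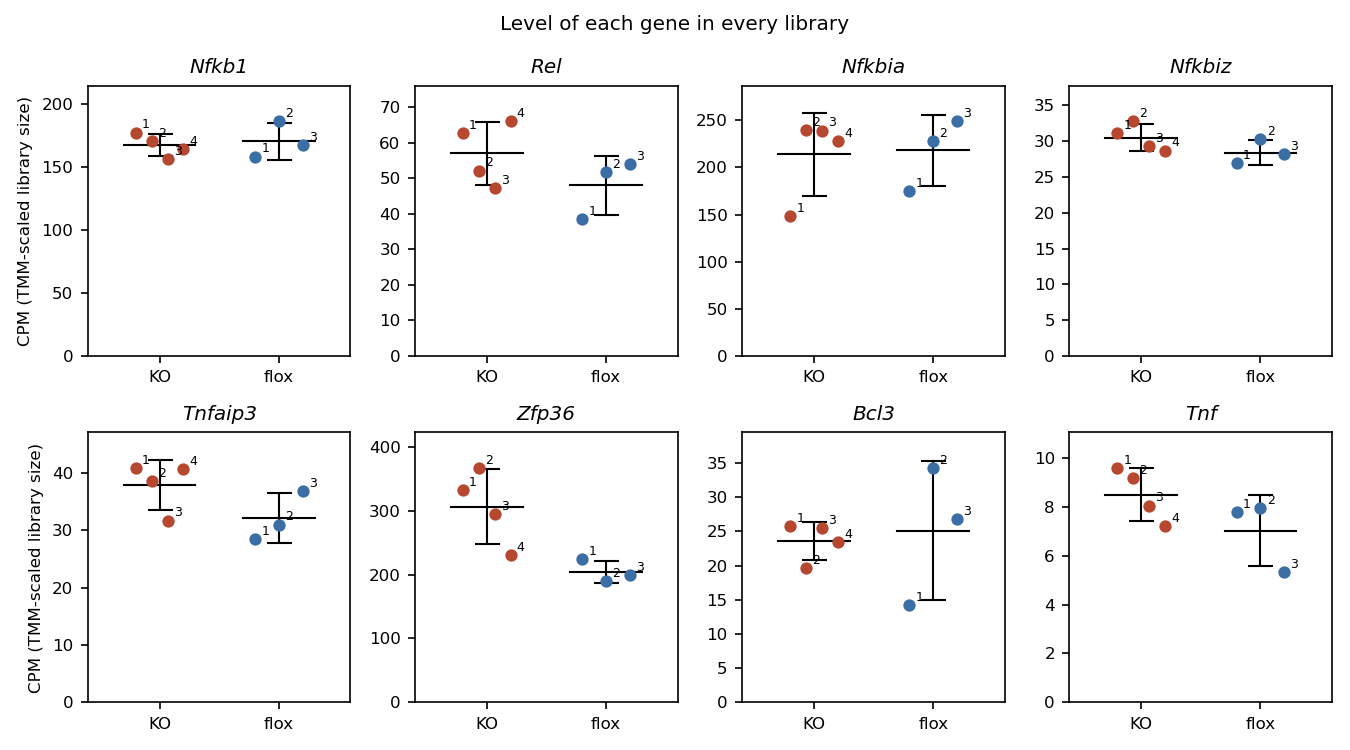
Level of each of the 8 genes in CPM (TMM-scaled library size) by genotype, with a point for each library labelled by its replicate number; the line is the mean and the bar 1 SD (n = 4 KO, n = 3 flox). Zfp36 has its lowest KO library at 230 CPM and its highest flox library at 224 CPM, and in the other 7 genes the groups overlap.

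The promoter of Zfp36 is shown with those of Nfkbia and Tnfaip3 to set the starts of the 3 feedback genes side by side. Each window runs from 250 bases before to 50 after the RefSeq start on GRCm38.p6 and is written 5′ to 3′ on the minus strand, where all 3 genes lie. The RefSeq start used lies 1025 bases inside the GENCODE gene for Zfp36 and 247 bases inside it for Tnfaip3. For Nfkbia the RefSeq and GENCODE starts are the same. Capitals mark matches, on either strand, to the kappa B consensus, the CArG box bound by serum response factor, the AP-1 site TGANTCA or the cyclic AMP element TGACGTCA.
Zfp36, chr7:28379179-28379478: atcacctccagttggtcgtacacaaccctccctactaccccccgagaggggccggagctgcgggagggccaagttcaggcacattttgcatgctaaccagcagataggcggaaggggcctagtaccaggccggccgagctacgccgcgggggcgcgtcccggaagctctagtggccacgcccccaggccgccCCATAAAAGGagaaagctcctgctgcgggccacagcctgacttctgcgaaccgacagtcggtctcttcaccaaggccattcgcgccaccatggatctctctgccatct
Nfkbia, chr12:55492598-55492897: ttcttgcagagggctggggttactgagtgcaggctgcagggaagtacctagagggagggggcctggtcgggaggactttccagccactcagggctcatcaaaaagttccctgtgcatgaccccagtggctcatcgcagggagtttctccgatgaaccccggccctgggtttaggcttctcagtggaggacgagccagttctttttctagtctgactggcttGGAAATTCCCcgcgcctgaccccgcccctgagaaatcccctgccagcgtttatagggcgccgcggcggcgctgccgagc
Tnfaip3, chr10:19015361-19015660: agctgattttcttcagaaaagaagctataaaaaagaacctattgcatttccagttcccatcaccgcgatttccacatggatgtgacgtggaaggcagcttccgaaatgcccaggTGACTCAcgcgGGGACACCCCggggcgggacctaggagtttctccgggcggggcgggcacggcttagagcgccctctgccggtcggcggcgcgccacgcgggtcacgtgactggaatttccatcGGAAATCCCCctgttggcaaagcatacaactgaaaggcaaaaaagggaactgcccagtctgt
The Zfp36 window held a CArG box at -58 to -49 from the start and no match to the kappa B consensus. The Nfkbia window held a kappa B match at -29 to -20. The Tnfaip3 window held kappa B matches at -125 to -116 and at -12 to -3, and an AP-1 site at -136 to -130. A kappa B match also lay in the windows of Rel, where 2 overlapping matches start at -92 and -91, and of Bcl3, at 2 to 11 bases past the start. The Tnf window held none of the 4 motifs. Of 32851 RefSeq promoter windows of this length, 8.46% held the kappa B consensus, 1.63% a CArG box, 7.81% an AP-1 site and 1.79% the cyclic AMP element. Windows of Nfkb1 and Nfkbiz were not analysed here, and a match is a description of letters only. The part of any match in the levels of these genes was not tested.

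Tnf (ENSMUSG00000024401, chromosome 17, 35199381 to 35202007, minus strand) encodes the cytokine that both activates NF-kB and is induced by it. It had 9.59, 9.15, 8.04 and 7.19 CPM in KO, against 7.77, 7.95 and 5.34 CPM in flox. KO 4 lay below flox 1 and flox 2, so the groups overlapped, and flox 3 was the lowest of the 7. The means were 8.49 ± 1.09 CPM in KO (SD, n = 4) and 7.02 ± 1.46 CPM in flox (SD, n = 3). KO minus flox was 0.27 log2 units (edgeR adjusted p = 0.512, SE 0.17, 95% interval -0.10 to 0.65). Over the leave-one-out fits it ran from 0.11 (without flox 3) to 0.39 (without flox 2). These values rest on 316 to 455 counts per KO library and 250 to 390 per flox library, the fewest of the 8 genes.

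The mature microRNAs of the deleted cluster are shown because Tnf was the only one of the 8 genes with a match to their seed in its longest annotated 3′ UTR. The cluster lies on chromosome 2, a copy on chromosome 1 encodes the same mature sequences, and capitals mark the shared seed, bases 2 to 8 (RefSeq, GRCm38.p6).
mmu-miR-181a-5p: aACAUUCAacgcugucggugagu
mmu-miR-181b-5p: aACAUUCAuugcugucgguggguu
The match in Tnf is shown with its flanks, with the complement of the seed in capitals.
Tnf, chr17:35199653-35199680: tatttgcttaTGAATGTatttatttgga
The base after the match is an A, which makes this an 8-base match (TGAATGTA), at chromosome 17, 35199664 to 35199670 for the 7 bases in capitals, in the 3′ UTR and starting 475 bases past the stop codon. Among 14319 tested genes with an annotated 3′ UTR, 18.5% held TGAATGT and 5.99% held TGAATGTA. The other 7 genes held neither, over 3′ UTRs of 410 bases (Bcl3) to 5418 bases (Rel). The 95% interval of Tnf, -0.10 to 0.65, holds 0. These windows say nothing of binding, and mature miR-181 is not read by poly(A) libraries.

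AU-rich elements, which tristetraprolin recognises, lie just upstream of that match. TTATTTATT, a full nonamer of this kind, occurred 5 times, overlaps counted, in the 3′ UTR of Tnf, the first starting 438 bases past the stop codon, and 1 time each in Rel, Nfkbia, Tnfaip3 and Zfp36 itself. Of the 14319 3′ UTRs, 7.72% held it. The stretches in Tnf, the target, and in Zfp36, the gene of the binding protein, are shown with the nonamers in capitals, and the stretch of Tnf holds 3 of its 5.
Tnf, chr17:35199688-35199715: tgcacttaTTATTTATTATTTATTTATT
Zfp36, chr7:28376950-28376977: tgacgactTTATTTATTgtattaagatt
The shorter core ATTTA occurred 8 times in Tnf (10.5 per kilobase of 3′ UTR), 3 times in Zfp36 (3.88 per kilobase) and in no place in Bcl3. At least 3 copies were present in 37.8% of the 14319 3′ UTRs.

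The libraries of both subunit genes overlapped between the genotypes. Nfkb1 (chromosome 3, 135584655 to 135691547), which encodes p105 and its product p50, had 177, 170, 156 and 164 CPM in KO, against 158, 186 and 167 CPM in flox. Its libraries interleaved, with the highest in flox 2 and the lowest in KO 3. Its log2 difference of -0.03 (edgeR adjusted p = 0.909, SE 0.08) had a 95% interval of -0.21 to 0.14, or 0.867 to 1.1 as a ratio of KO to flox. Rel (chromosome 11, 23736847 to 23770970), the c-Rel subunit of lymphocytes and other blood cells, had 62.7, 52.1, 47.2 and 66.0 CPM in KO, against 38.4, 51.6 and 53.9 CPM in flox. Flox 1 was the lowest library, and KO 3 lay below flox 2 and flox 3. Rel differed by 0.25 log2 units (SE 0.15, 95% interval -0.09 to 0.59, edgeR adjusted p = 0.502). Over the leave-one-out fits this ran from 0.11 (without flox 1) to 0.34 (without KO 3).

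The inhibitor and co-regulator genes did not separate the genotypes either. Nfkbia (chromosome 12, 55489410 to 55492647), the inhibitor resynthesised after each NF-kB response, had 148, 240, 239 and 228 CPM in KO, against 175, 228 and 249 CPM in flox. KO 1 was low among the KO libraries, and flox 1 among the flox libraries. The difference was -0.02 log2 units (edgeR adjusted p = 0.975, SE 0.19, 95% interval -0.45 to 0.40), and it was 0.12 without KO 1. Nfkbiz (chromosome 16, 55811375 to 55838899), the nuclear IkB-zeta that helps induce secondary response genes, had 31.1, 32.8, 29.3 and 28.7 CPM in KO, against 26.9, 30.3 and 28.2 CPM in flox. It differed by 0.10 log2 units (edgeR adjusted p = 0.631, SE 0.08, 95% interval -0.08 to 0.28). Over the leave-one-out fits this ran from 0.06 (without flox 1) to 0.16 (without flox 2).

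Bcl3 (chromosome 7, 19808462 to 19822770), a nuclear IkB protein that partners p50 and p52 dimers, was the most variable of the 8 genes in flox. It had 25.8, 19.6, 25.5 and 23.4 CPM in KO, against 14.2, 34.3 and 26.8 CPM in flox. The flox libraries bracketed all 4 KO libraries, and the coefficient of variation was 12.0% in KO and 40.6% in flox. The log2 difference of -0.09 (edgeR adjusted p = 0.928, SE 0.27, 95% interval -0.72 to 0.54) was -0.38 without flox 1 and 0.22 without flox 2. Gm16174, an antisense gene inside Bcl3, had 33 to 93 counts per library, against 712 to 1675 for Bcl3.

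Tnfaip3 (chromosome 10, 19000910 to 19015657), which encodes the ubiquitin-editing brake A20, came closest to the threshold after Zfp36. It had 40.9, 38.5, 31.7 and 40.6 CPM in KO, against 28.4, 31.0 and 36.8 CPM in flox. Flox 3 lay above KO 3 and below the other KO libraries. KO minus flox was 0.24 log2 units (edgeR unadjusted p = 0.0634, adjusted p = 0.381, SE 0.12, 95% interval -0.02 to 0.50). Over the leave-one-out fits it ran from 0.16 (without flox 1) to 0.35 (without flox 3).

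**Figure D2:**
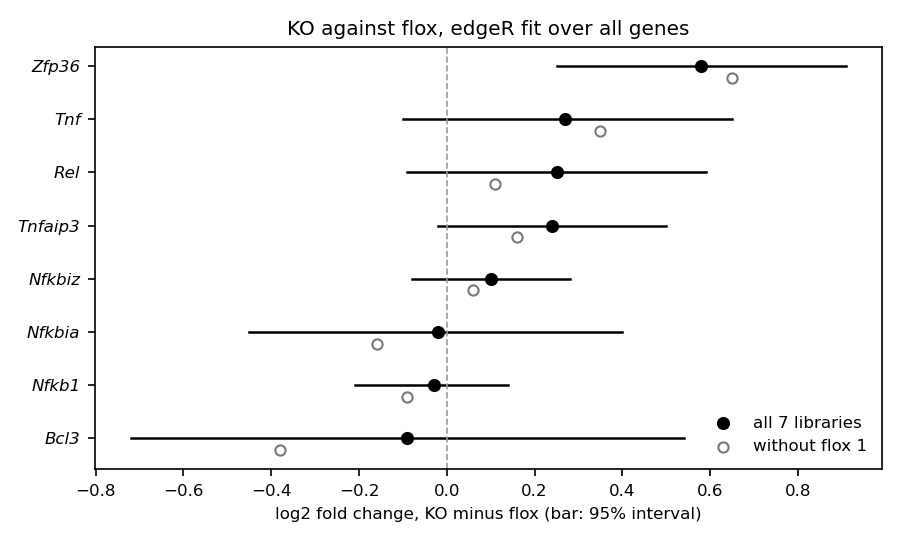
Log2 fold change of each gene, KO minus flox, from the edgeR fit over all genes; filled points and 95% bars use all 7 libraries and open points leave out flox 1. The Zfp36 interval, 0.25 to 0.91, is the only one of the 8 that does not hold 0, before adjustment over all genes.

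Flox 1 was the lowest of the 7 libraries in 4 of the 8 genes, Rel, Nfkbiz, Tnfaip3 and Bcl3, and among the highest 3 in none. KO 1 was among the highest 3 in 7 of the 8 genes and the lowest in Nfkbia. With flox 1 left out, 5 of the 8 were still higher in KO and their median was 0.08. Flox 1 was also the library with the lowest summed B lineage level; the part of this in the low Rel, Nfkbiz, Tnfaip3 and Bcl3 values was not tested. After centring on the genotype means, the 8 genes did not form a single profile over the 7 libraries: Pearson r over the 28 pairs ran from -0.57 (Nfkbia and Tnf) to 0.86 (Rel and Tnfaip3), with a median of 0.21 and 19 pairs above 0. These r are a description over 7 libraries that all 8 genes share.

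**Figure D3:**
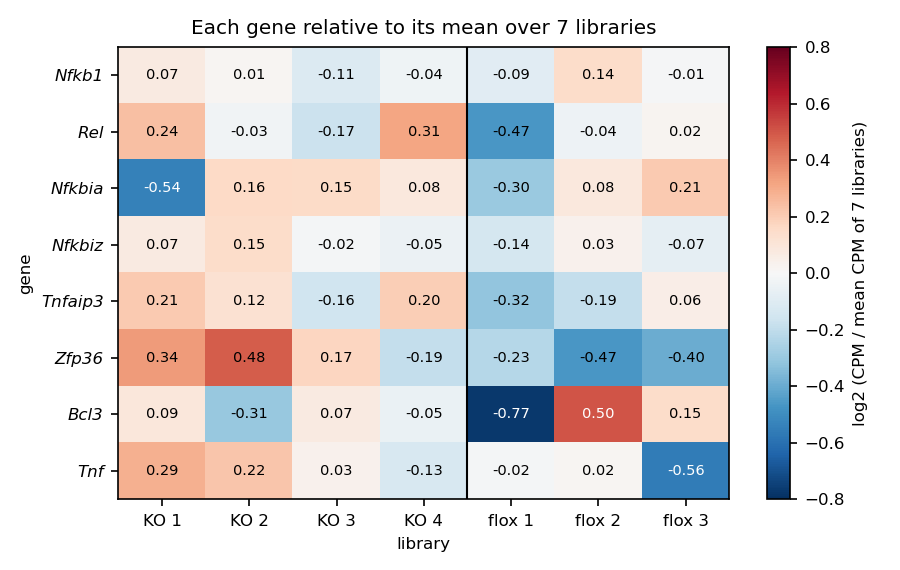
Log2 of CPM over the gene's mean CPM in 7 libraries, with a row for each gene and a column for each library; red is above and blue below the mean. Zfp36 is above its mean in 3 of 4 KO libraries and below it in all 3 flox libraries, and flox 1 is below the mean in all 8 genes, down to -0.77 for Bcl3.

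Per kilobase of annotated exon, Nfkbia and Zfp36 stood far above the other 6 genes. The level in KO was 133 ± 27.3 CPM per kilobase for Nfkbia and 88.2 ± 16.9 for Zfp36 (SD, n = 4), and in flox 135 ± 23.5 and 58.9 ± 5.06 (SD, n = 3). Overlap on this scale compares the ranges over libraries, not the order of 2 genes within a library. In KO the ranges of Nfkbia and Zfp36 overlapped, at 92.2 to 149 and 66.2 to 106 CPM per kilobase, with Nfkbia lowest in KO 1. In flox they did not, at 109 to 154 for Nfkbia and 54.7 to 64.5 for Zfp36. Nfkb1 followed at 13.8 ± 0.729 CPM per kilobase in KO and 14.1 ± 1.2 in flox, then Bcl3 at 9.53 ± 1.14 and 10.1 ± 4.11 and Rel at 7.63 ± 1.18 and 6.43 ± 1.12, in the same group order. Nfkbiz, Tnfaip3 and Tnf were the lowest, at 6.07, 5.25 and 5.18 CPM per kilobase in KO and 5.67, 4.44 and 4.28 in flox. In both genotypes the libraries of Bcl3 and Rel, of Rel and Nfkbiz, and of Tnfaip3 and Tnf overlapped on this scale, and those of Nfkbiz and Tnfaip3 did not. Nfkb1 and Bcl3 overlapped in flox and not in KO. The length is the union of all annotated exons, so genes with many long transcript variants, such as Nfkb1 at 12061 bases, are set lower than a single transcript would set them. For Zfp36 the union of 3470 bases covers the whole gene, with no base left out as intron, against 1610 bases for Nfkbia. The order of Zfp36 and Nfkbia, and their separation in flox, therefore depend on this length.

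The other genes of the pathway were read in 9 lists that hold the 8 genes and 97 more. Of 105 listed genes 103 were tested, 0 passed in either direction, 71 were higher in KO and 32 lower, and the median log2 fold change was 0.07. An unadjusted edgeR p under 0.05 was found in 16 higher and 3 lower genes, or 18.4% of those tested, against 14.1% of all genes, 5.89% higher and 8.17% lower. The lowest adjusted p was 0.187, for Nos2, the inducible nitric oxide synthase.

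The mRNA decay list showed the Zfp36 family side by side. Zfp36l1 and Zfp36l2, the paralogs of Zfp36 that bind the same AU-rich elements, gave 0.58 (SE 0.15, edgeR adjusted p = 0.202) and 0.39 (SE 0.11, adjusted p = 0.22). Zfp36l1 had 37.3, 31.1, 42.0 and 39.3 CPM in KO, against 21.2, 22.8 and 31.2 CPM in flox, and KO 2 lay just below flox 3. Zfp36l2 had 535, 671, 687 and 677 CPM in KO, against 472, 448 and 552 CPM in flox, and KO 1 lay below flox 3. Zc3h12a, the endonuclease regnase-1, gave 0.28 (adjusted p = 0.318). All 9 genes of the list were higher in KO, where 48.1% of all tested genes were, and the list median was 0.12. Zfp36 itself, Zfp36l1, Zfp36l2 and Zc3h12a were the 4 with an unadjusted edgeR p under 0.05. Of all tested genes 5.89% were higher at that p. Cnot2, Rc3h2, Rc3h1, Elavl1 and Cnot1 gave 0.01 to 0.12, with unadjusted edgeR p of 0.133 to 0.928. Without flox 1, 8 of 9 were higher and the values were 0.47 for Zfp36l1, 0.36 for Zfp36l2 and 0.15 for Zc3h12a. DESeq2 called Zfp36l1 (adjusted p = 0.0215) and Zfp36l2 (0.0443).

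Of the 5 subunit genes 4 were higher and 0 passed. Nfkb2 (p100 and p52) gave 0.36 (edgeR adjusted p = 0.316) and Relb, its partner in the alternative pathway, 0.42 (0.407), with 0.20 and 0.17 without flox 1. Nfkb2 had 57.2, 42.5, 48.0 and 47.0 CPM in KO, against 29.7, 41.4 and 42.9 CPM in flox, where flox 1 was the lowest and KO 2 lay just below flox 3. Among 6 IkB genes, 4 were higher and 0 passed; Nfkbid, a nuclear IkB of lymphocytes, gave 0.42 (0.334), Nfkbie 0.27 (0.539) and Nfkbib 0.10 (0.669), and without flox 1 these were 0.23, 0.10 and 0.06. The 12 kinase genes, of the IKK complex and upstream of it, had a median of 0.03, with 0 past the test and 0 at an unadjusted p under 0.05. The kinases with the lowest p were Ikbke at -0.38 (0.386), Ripk1 at -0.14 (0.50), Ikbkb at 0.10 (0.579) and Tbk1 at 0.07 (0.705), with 0.06 for Ikbkb and 0.04 for Tbk1 without flox 1. The ubiquitin-editing list had a median of 0.02 over 9 genes, and after Tnfaip3 its lowest p were for Tax1bp1 (-0.09), Cyld (0.06) and Itch (-0.08), at -0.05, 0.04 and -0.03 without flox 1.

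TNF family ligands pointed both ways, with 5 of 10 higher and 0 past the test. Tnfsf13 (APRIL) and Tnfsf13b (BAFF), the B cell and plasma cell survival factors, gave -0.62 and -0.31 (edgeR adjusted p = 0.22 for each). Tnfsf13 had 5.63, 4.80, 4.10 and 4.89 CPM in KO, against 7.15, 9.20 and 5.98 CPM in flox. Every KO library was below every flox library in both genes, where 7.41% of all tested genes have this pattern. Lta, the lymphotoxin of lymphocytes next to Tnf, gave 1.21 (0.28) at 1.18 ± 0.262 CPM in KO (SD, n = 4) and 0.512 ± 0.325 CPM in flox (SD, n = 3), and 0.77 without flox 1. Tnfsf10 (TRAIL) gave 0.25 (0.477).

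Of 12 receptor genes 6 were higher and 0 passed. Tnfrsf9 (4-1BB) gave 0.80 (edgeR adjusted p = 0.241), at a low mean of 1.39 CPM in KO and 0.80 CPM in flox. Ltbr, the lymphotoxin receptor, gave -0.26 (0.304), Tnfrsf1a, the main TNF receptor, -0.24 (0.406) and Fas -0.23 (0.53). Of 12 adaptor and ubiquitin ligase genes 10 were higher and 0 passed. Traf2 gave 0.20 (0.267), Traf5 0.50 (0.275), Fadd -0.23 (0.374) and Birc3 0.35 (0.449). Without flox 1 Traf5 gave 0.31 and Birc3 0.15.

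Among 30 inducible target genes of NF-kB, 28 were tested, 20 were higher and 0 passed, with a median of 0.13. The chemokine genes Ccl4 (1.16, edgeR adjusted p = 0.227), Cxcl2 (0.69, 0.229) and Ccl3 (1.07, 0.28) and Nos2 (0.98) had the lowest p. Cxcl2, a neutrophil attractant, had 19.9, 24.1, 16.5 and 16.1 CPM in KO, against 15.5, 9.63 and 10.4 CPM in flox. Its groups did not overlap, and the value was 0.93 without flox 1. Ccl4, a chemokine of activated monocytes and lymphocytes, had 3.65, 3.22, 1.69 and 1.78 CPM in KO, against 1.55, 0.861 and 1.05 CPM in flox. KO 1 and KO 2 were the highest libraries for Cxcl2, Ccl4, Zfp36 and Tnf alike. DESeq2 called Cxcl2 (adjusted p = 0.0251), Ccl4 (0.0378) and Ccl3 (0.0399). With Zfp36, Zfp36l1 and Zfp36l2 these were the 6 of 103 tested pathway genes that it called. Of all genes with a DESeq2 adjusted p, 2.15% were called.

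**Figure D4:**
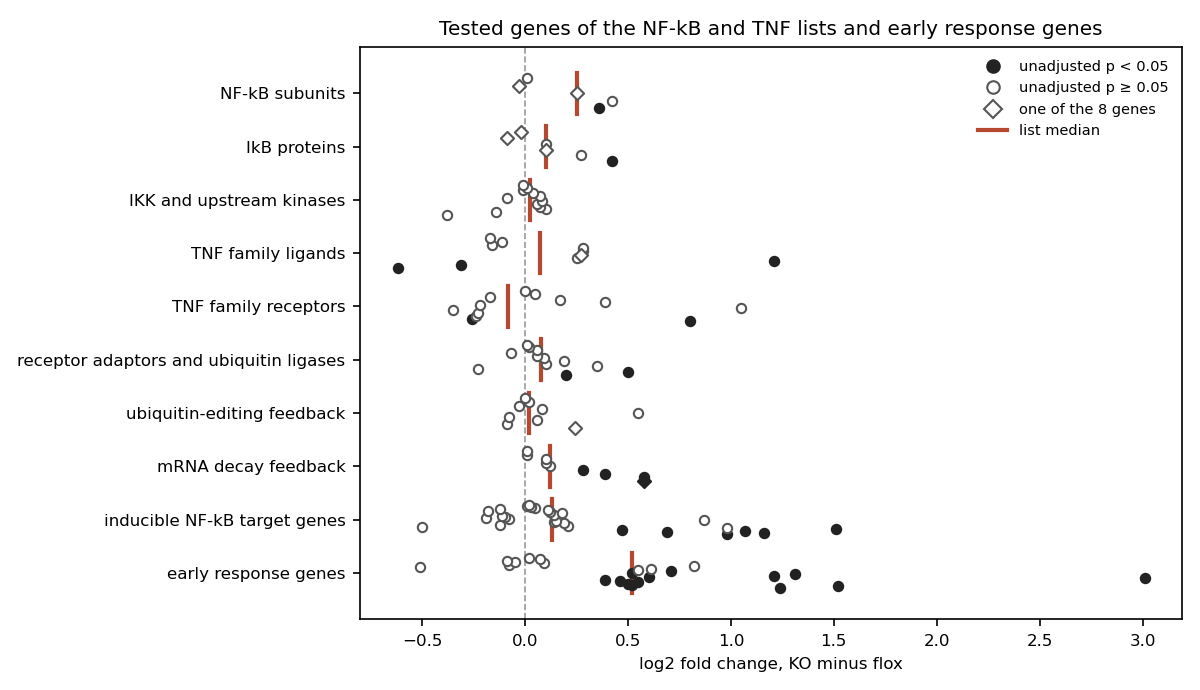
Log2 fold change, KO minus flox, of the tested genes of each list, with filled points at an unadjusted edgeR p under 0.05, diamonds for the 8 genes and a red line at the list median. The medians of the 9 pathway lists lie between -0.09 and 0.25, and that of the early response genes is 0.52.

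By Pearson r on log2 CPM centred on the genotype means, the genes most like the mean profile of the 8 genes over the 7 libraries, among 9574 others whose mean log2 CPM reached 3, were Hmox2 (r = 0.996), Blmh (0.986), Commd10 (0.985), Egln1 (0.984), Dcp1b (0.983), Eed (0.973), Ctso (0.973) and Zfp706 (0.968). With 7 libraries and so many genes such values are a description only, and the log2 fold changes of these genes ran from -0.10 to 0.29.

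Markers of intestinal epithelium also differed by genotype: all 20 were higher in KO, where 48.1% of all tested genes were. Of the 20, 19 passed the edgeR test, which called 26 of all 17920 genes (0.145%). The list was chosen with earlier results of these data known, so its counts are a description only. These markers summed to 178 to 231 CPM in KO and 83.7 to 89.3 CPM in flox, and none was at 0. Adipocyte markers summed to 124 to 153 CPM in KO and 114 to 253 CPM in flox, with the leptin gene Lep at 0 in some libraries. The part of either in the values of the 8 genes was not tested.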

How the data were processed

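Raw read counts per Ensembl gene were deposited by the authors, with a column for each of 7 bone marrow libraries (4 KO, 3 flox). Per the submitters' processing notes, Trimmomatic 0.36, STAR 2.5.2b, featureCounts of Subread 1.5.2 and GRCm38 were used, with the annotation release, strand setting and treatment of multi-mapping reads not given in the sources used here. The labels' extraction text names white adipose tissue; the source label, bone marrow, was followed. Columns were matched through library codes in the labels. Of 49315 identifiers, 49056 matched GENCODE M21. Within groups no pair of libraries agreed within sampling noise (chi-square per degree of freedom 19.0 to 90.6), so all 7 were counted.

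Counts were filtered with filterByExpr (minimum count 10), TMM-normalized and fitted with edgeR 4.0.16 (robust glmQLFit and glmQLFTest, two-sided, R 4.3.3), with Benjamini-Hochberg adjustment over 17920 genes and a threshold of 0.05. SEs follow from the quasi-likelihood F statistic. CPM were computed on TMM-scaled library sizes; their log2 used a prior count of 2. The fit was first tested on simulated counts. Alternatives were DESeq2 1.42.0, limma-voom (limma 3.58.1), other normalizations and filters, a replicate block and leaving out each library. The 8 genes and the lists were chosen with earlier results of these data known. Named from each pathway list are the 4 tested genes with the lowest p, and by likeness the 8 genes with the highest r; Dusp2, Egr1, Jund and Junb follow the same rule in the early response list. Motifs were searched in RefSeq promoter windows and in the longest GENCODE M21 3′ UTR of each gene. No set test was run.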

Additional observations from a re-analysis of the deposited data

Results flagged for a closer look

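Nfkbia in KO 1, at 148 CPM, was far from the other 3 KO libraries, which lay between 228 and 240 CPM. The gap to the nearest was 0.875 of the range of the 4, above Dixon's 95% critical value for 4 samples. Chance flags about 1 in 20 groups, and 8 genes were examined in KO; the 3 flox libraries are too few for this rule.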

How the results depend on the processing

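No alternative but DESeq2 called any of the 8 genes. DESeq2 called 1, Zfp36 (0.60, adjusted p = 0.0111). It called 6 of the 103 tested pathway genes, Zfp36 among them, where the edgeR test called 0. Of all genes with an adjusted p DESeq2 called 2.15%, and edgeR called 0.145% of tested genes. The Zfp36 adjusted p ran from 0.0111 to 0.354 over all alternatives. Over the fits without 1 library each, Nfkb1 ran from -0.088 to 0.054, Nfkbia from -0.16 to 0.12 and Bcl3 from -0.38 to 0.22, so their direction was not fixed; the other 5 kept theirs, and the number of the 8 higher in KO ran from 5 to 8 (8 without flox 2). The count of genes called over all genes was 26 in the main test, 362 with DESeq2, 13 with limma-voom, 112 without a filter on low counts, 16 with a non-robust fit and 2 to 14 without 1 library; the cause was not tested. Replicate numbers were tried as a replicate block, which gave 4 called genes, 0 of the 8, and 0.69 for Zfp36. The numbers did not pair the samples: same-numbered libraries correlated at -0.0221, 0.0768 and 0.0228 in their deviations from the group means, and flox 1 correlated best with KO 3. Depth limits Tnf most, at 250 to 455 counts per library.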
